A study of Mus musculus with 3 samples.

Results

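Connexins and tight junction proteins join neighbouring keratinocytes, and 8 of their genes were followed here among 19927 gene symbols counted in single epidermal and hair follicle cells of mouse dorsal skin. The genes were taken by name: the connexin genes Gjb2, Gjb6, Gjb5 and Gja1, the claudin genes Cldn1 and Cldn4, the occludin gene Ocln, and Tjp1, which encodes the scaffold protein ZO-1. All 8 had rows in the matrices of all 3 libraries. The cells came from P18 mice. Both control libraries were Vdr flox/flox, and the remaining library was labelled Vdr flox/flox; Krt14cre, named Vdr cKO, so that the floxed Vdr alleles were shared by all 3. It is called the library labelled cKO here. In that line the Keratin-14 promoter drives Cre in keratinocytes and their follicle counterparts, and the recombination removes exon 3 of Vdr, the vitamin D receptor gene. Per the study's methods, cells of 3 male mice were pooled for each library, so that a library is 1 sample and the spread between animals was not measured.

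Connexins are channel proteins. Connexin rings in the membranes of adjoining cells dock to form gap junctions, through which ions and small metabolites pass from cell to cell. Claudins and occludin are membrane proteins of tight junctions, which seal the space between cells, and ZO-1 ties them to the actin cytoskeleton. In the epidermis, keratinocytes divide in the basal layer, which makes Krt14, move into the spinous layers, which make Krt10, and end in the granular layer, which makes the cornified envelope protein loricrin (Lor). Barrier-forming tight junctions lie in the granular layer, while claudin-1 and ZO-1 are known from the lower layers too. Connexin 43, the product of Gja1, and connexin 26, the product of Gjb2, are both known from skin and hair follicles.

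Vdr itself did not follow the label. Pooled over the kept cells, Vdr stood at 40.7 and 35.9 CPM, counts scaled to a common library total, in control 1 and control 2 and at 80.8 CPM in the library labelled cKO. The deposited counts are per gene, so whether the transcripts held exon 3 could not be seen, and directions between libraries are given below for the library as labelled.

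Barcodes were kept from 200 detected genes upward where mitochondrial counts did not exceed 20%. That left 1480, 1658 and 2622 cells in the 2 controls and the library labelled cKO, with between 18802408 and 30954897 counts per library and median counts per cell between 4055 and 4492. The median number of detected genes per cell was 377, 502 and 688.5, or 91.9, 118 and 165 per 1000 counts, and entries equal to 1 made up 15.5%, 23.5% and 27.0% of those above 0, so that the library labelled cKO held more genes for its counts. Of the kept cells, 27, 28 and 20 had a barcode that was also found in another library. Keratinocyte markers were present in all 3 libraries, but the libraries differed in their makeup. The summed level of 6 basal markers was 4587, 3267 and 12427 CPM, that of 6 spinous markers 101446, 113105 and 72173 CPM, and that of 8 granular markers 21834, 20398 and 16969 CPM. The 6 markers of the inner root sheath of the hair follicle summed to 0.585, 2.54 and 235 CPM, with 5, 3 and 0 of the 6 without a count. The 5 markers of the companion layer summed to 687, 813 and 2360 CPM, and 3 cycling markers to 56.8, 51.8 and 195 CPM. Fibroblast and endothelial lists stayed at 8.72 CPM or lower in every library.

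Upstream sequences are shown for Gja1, Gjb5 and Cldn4, the 3 members whose level passed the test across bins of cells described below. They were taken from RefSeq (GRCm38.p6), run from 250 bases before the annotated start to 50 after it, and are printed 5′ to 3′ on the gene's own strand. All 8 members matched an entry. Capitals mark the places where 3 short motifs were found on either strand: TGANTCA, the AP-1 motif, AGGTCA, the repeated core of vitamin D response elements and of other nuclear receptor sites, and TATAAA, the TATA box. The windows are chr10:56377050-56377349 (plus strand) for Gja1, chr4:127358115-127358414 (minus strand) for Gjb5 and chr5:134946885-134947184 (minus strand) for Cldn4.
Gja1: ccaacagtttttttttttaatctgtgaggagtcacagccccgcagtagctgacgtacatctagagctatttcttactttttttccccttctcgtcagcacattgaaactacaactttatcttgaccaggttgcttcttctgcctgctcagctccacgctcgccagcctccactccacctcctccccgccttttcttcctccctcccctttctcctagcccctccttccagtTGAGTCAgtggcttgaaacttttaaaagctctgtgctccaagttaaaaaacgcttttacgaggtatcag
Gjb5: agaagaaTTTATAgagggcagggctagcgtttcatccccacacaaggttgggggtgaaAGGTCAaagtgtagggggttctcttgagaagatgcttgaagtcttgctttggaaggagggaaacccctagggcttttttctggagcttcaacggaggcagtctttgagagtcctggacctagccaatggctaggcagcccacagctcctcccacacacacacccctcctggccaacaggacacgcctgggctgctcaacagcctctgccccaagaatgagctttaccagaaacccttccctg
Cldn4: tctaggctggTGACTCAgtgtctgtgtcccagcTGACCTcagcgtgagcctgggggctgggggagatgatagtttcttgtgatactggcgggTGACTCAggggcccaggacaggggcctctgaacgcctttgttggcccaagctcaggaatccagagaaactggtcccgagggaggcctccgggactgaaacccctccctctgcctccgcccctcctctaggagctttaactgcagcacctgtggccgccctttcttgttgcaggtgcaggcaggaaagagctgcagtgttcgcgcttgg

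Counted from 1 at the 5′ end of each window, the Gja1 window held TGANTCA at position 232. The Gjb5 window held TATAAA at 8 and AGGTCA at 59, and no TGANTCA. The Cldn4 window held TGANTCA at 11 and 93 and AGGTCA at 34. AGGTCA was also in the windows of Gjb2, at position 60, and of Ocln, at position 6 of 1 of its 2 windows, while those of Gjb6, Cldn1 and Tjp1 held none of the 3 motifs. Matches did not overlap. Among 32851 promoter windows of the same length, 7.81% held TGANTCA, 16.3% held AGGTCA and 13.6% held TATAAA. A match is a description of the letters only.

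The first comparison set the library labelled cKO against both controls. Gja1 stood apart. Its pooled level was 45.2 and 38.1 CPM in the 2 controls and reached 180.2 CPM in the library labelled cKO, with exact 95% Poisson intervals of 42.2 to 48.3, 35.8 to 40.4 and 175.5 to 185.0 CPM. The level was 3.99 and 4.73 times that of the 2 controls, which themselves differed by 0.24 on the log2 scale, and its log2 fold against the mean of the controls came to 2.09 after adding 1 CPM throughout. Because 1 library carries the label, this difference has no replicate check and no p-value was computed. Intervals here and below cover counting error only, since the counts may include copies made by PCR.

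The Gja1 counts were spread over many cells. They came from 56 and 80 cells of the controls and 538 cells of the library labelled cKO, with 15.2, 13.7 and 10.4 counts per cell that had any. The cell with the most held 11.3%, 7.23% and 2.13% of the library's Gja1 counts. Without that cell in each library, the levels were 40.1, 35.5 and 176.8 CPM.

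A gene was called between libraries when its level, with 1 CPM added, was over 2-fold above or below both other libraries, among genes that reached 50 CPM somewhere. Of the members, 5 reached that level (Gjb5, Gja1, Cldn1, Cldn4 and Tjp1) and 1 of them, Gja1, was called. Gja1 was under 50 CPM in both controls and passed the filter through the library labelled cKO alone, so that this count supports nothing. Of all 3919 genes that reached it, 197 were called, or 5.03%, of which 152 were higher and 45 lower in the library labelled cKO. When control 1 or control 2 was put in its place, 1.68% and 1.74% of the same genes were called. The median log2 fold was -0.19 over the 5 members and 0.00166 over all genes tested. With TMM or median-of-ratios factors in place of library totals, the median of all genes moved to -0.18 and -0.21, and 57.4% and 53.5% of called genes were higher, against 77.2% with library totals. Gja1 kept a log2 fold of 1.91 and 1.88 under them.

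Of the other connexin genes, Gjb5, which encodes connexin 31.1, a connexin of stratified epithelia, was at 430 and 459 CPM in the 2 controls and 345 CPM in the library labelled cKO, a log2 fold of -0.36. It did not pass the 2-fold limit. Gjb2, the gene of connexin 26, was at 13.6, 16.8 and 34.2 CPM, 2.51 and 2.03 times the level of the controls, but lay under 50 CPM in every library and was not tested. Its counts came from 23, 50 and 126 cells. Without cells that had a count of an inner root sheath marker, Gjb2 was at 13.6, 16.9 and 24.6 CPM, while Gja1 was at 45.2, 37.8 and 176.8 CPM. Gjb6, the gene of connexin 30, was found in 4, 13 and 20 cells, at 2.55, 3.87 and 2.58 CPM, and in control 1 a single cell held 66.7% of its counts.

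The tight junction genes did not pass the 2-fold limit or were not tested. Cldn1 was at 274.5, 274.4 and 240.9 CPM in control 1, control 2 and the library labelled cKO. Cldn4 was at 96.5, 89.9 and 78.9 CPM, Ocln at 37.2, 36.1 and 33.4 CPM, and Tjp1 at 36.2, 50.4 and 43.8 CPM. Cldn1, Cldn4 and Ocln were lowest in the library labelled cKO, with log2 folds of -0.19, -0.24 and -0.13, and Tjp1 lay between the controls. Under TMM factors, where the median of all genes was at -0.18, the folds of Cldn1, Cldn4 and Ocln were -0.37, -0.42 and -0.31. As a mean of the CPM of each cell, the folds were -0.33, -0.58 and -1.02. The direction of Ocln turned under other settings, to 0.24 when the gene was counted once per cell and to 0.11 without the cell with the most Ocln counts in each library.

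**Figure D1:**
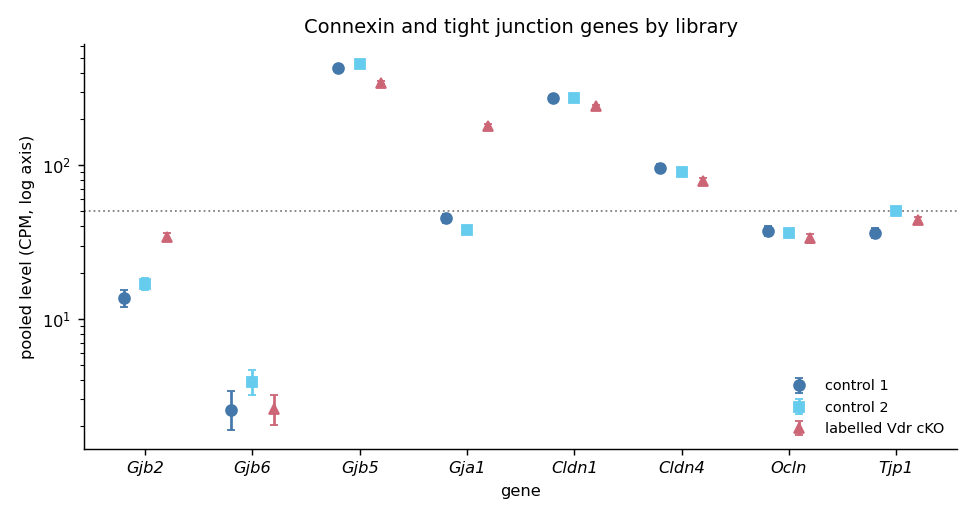
Pooled level of each of the 8 genes (CPM, log axis) in control 1 (circles), control 2 (squares) and the library labelled cKO (triangles), with exact 95% Poisson intervals and a dotted line at the 50 CPM needed for testing. Gja1 is at 180.2 CPM in the library labelled cKO against 45.2 and 38.1 CPM in the controls, and the pooled levels of Cldn1, Cldn4 and Ocln are lowest in that library.

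From a list of 80 other connexin, pannexin, claudin and tight junction symbols, 55 had a row in a matrix and 18 reached 50 CPM in at least 1 library. None of the 18 was called, again against 5.03% of all genes tested, and the rule is no replicated test and gives no p-value. The widest span among them was that of Cgn, the gene of the tight junction plaque protein cingulin, at 195, 309 and 152 CPM, where the controls differed by 0.66 on the log2 scale. Cgn was named in this comparison after its values were seen.

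Shares of cells with a count were compared after each cell had been thinned to 1000 counts, which left out 14, 61 and 60 cells. Gja1 was then found in 28 of 1466, 26 of 1597 and 227 of 2562 cells, or 1.91%, 1.63% and 8.86%, with exact Clopper-Pearson 95% intervals of 1.27% to 2.75%, 1.07% to 2.38% and 7.79% to 10.03%. Unthinned, the shares were 3.78%, 4.83% and 20.5%. Gjb5 was in 16.4%, 16.9% and 13.6% of thinned cells, Cldn1 in 9.28%, 12.7% and 11.5%, and Cldn4 in 5.05%, 5.07% and 4.68%. Tjp1 was in 1.30%, 2.57% and 2.34% of cells, Ocln in 1.43%, 1.25% and 1.80%, Gjb2 in 0.478%, 0.939% and 1.60%, and Gjb6 in under 0.3% of cells of every library. These intervals take the cells of 1 library as separate draws and do not measure the spread between libraries, so no test was read from them. Thinning also does not level the number of genes detected per count. With 200 detected genes drawn per cell, the Gja1 share was 1.55%, 0.905% and 4.31%.

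Immune cells gave the background, although Langerhans cells are themselves known to make claudin-1. They were set by markers of antigen-presenting cells and T cells, and numbered 3, 9 and 57 among the thinned cells of the 3 libraries. In the library labelled cKO, Gja1 was found in 8 of 57 immune cells, or 14.04% (6.26% to 25.8%), against 8.74% of its other cells. Gjb5 was in 19.3% of those immune cells against 13.5% of the others, and Cldn1 in 22.8% against 11.2%. The immune cells were deeper before thinning, with a median of 11330 counts against 4106. At this depth the shares of Gja1, Gjb5 and Cldn1 in that library are thus not above the immune background and were not read as shares of expressing cells, and with 3 and 9 immune cells the controls give no usable background. Cldn4 was in 3.51% of those immune cells and 4.71% of the others, also within counting error. No doublet caller was run on these immune cells, so their shares are not a certain floor of free RNA. Whether free RNA had a part in the Gja1 difference was not tested.

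The second comparison set the level of each gene against the levels of Krt14, Krt10 and Lor in the same cells. Within each library the cells were ranked by their own level of Krt10 or of Lor and split into 3 equal bins, called low, middle and high. For Krt14 the bins were cells without a count (none) and the cells with one, split at their median (low and high). Counts were summed per library and bin and the high bin was tested against the low one, or for Krt14 against none, with edgeR's quasi-likelihood test, with library as a term, TMM factors and Benjamini-Hochberg adjustment over all genes. The 3 libraries were the replicates (n = 3), both genotypes together.

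Gjb5 had the widest difference across Krt10. In control 1 it was at 207 CPM in the low bin, 541 CPM in the middle and 489 CPM in the highest. Control 2 had 88.1, 410.4 and 626 CPM, and the library labelled cKO had 100.1, 231 and 474 CPM. In all 3 libraries the high bin lay above the lowest. The fitted log2 ratio was 2.20 (SE 0.31, edgeR adjusted p = 0.00246), a 4.60-fold rise. The call held under all 14 alternatives tried, with adjusted p-values between 5.10e-12 and 0.0387 in edgeR and DESeq2, but the size did not: the log2 ratio ran from 0.51, with each gene counted once per cell, to 2.64, without control 1. In the low bin of the library labelled cKO, 5.98% (4.48% to 7.79%) of thinned cells had a Gjb5 count. In its high bin the share was 23.2% (20.4% to 26.2%). The low-bin share lay under the whole interval of the immune cells of that library (10.05% to 31.9%), so the immune share was not a floor for all cells. It cannot decide how much of the Gjb5 share was free RNA, and no order was read from these shares.

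Gja1 went the other way. Control 1 had 77.0, 47.1 and 28.2 CPM from the low to the high bin of Krt10, control 2 had 69.1, 41.0 and 24.6 CPM, and the library labelled cKO had 279, 232 and 126 CPM. Each library fell at each step, by 1.42, 1.45 and 1.14 on the log2 scale between its ends in control 1, control 2 and the library labelled cKO. The fitted log2 ratio was -1.29 (SE 0.31, edgeR adjusted p = 0.0393). The call was lost in 8 of 14 alternatives, with adjusted p-values between 0.0683 and 0.295 in edgeR: when any 1 library was left out, when each gene was counted once per cell, with all barcodes, with narrower limits on cells, without the 5% of cells with the most counts, and with 2 bins in place of 3. Before thinning, the share of cells with a count went against the CPM, but the bins differed in depth. Median counts per cell in the low and high bin were 4071 and 4432 in control 1 and 3801 and 6106 in control 2. They were 3698 and 6117 in the library labelled cKO. In control 1 the 369 counts of the low bin lay in 15 cells and the 268 of the highest in 27, in control 2 the 387 of the low bin lay in 19 and the 363 of the highest in 36, and in the library labelled cKO the share was 20.6% in the low and 23.9% in the high bin. After thinning the share was 1.63% and 2.67% in control 1 and 1.88% and 1.90% in control 2. In the library labelled cKO it was 10.43% and 7.94%, the same direction as the CPM. No order was read from these shares.

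These 2 members were those called across Krt10, of 8 tested, beside 3.74% of all 11794 genes tested, of which 236 were higher and 205 lower in the high bin. With library totals in place of TMM factors, 42.9% of the called genes were higher, against 53.5%, and 36.9% were higher with DESeq2. The other connexin genes, Gjb2 and Gjb6, did not pass the test. Cldn4 had 50.9, 126 and 106 CPM in the bins of control 1, 59.5, 108 and 91.0 CPM in control 2, and 48.3, 55.7 and 98.1 CPM in the library labelled cKO. Its high bin lay above its lowest in every library, but the fitted log2 ratio of 0.99 (SE 0.35) missed the threshold (edgeR adjusted p = 0.164). Cldn1, Ocln and Tjp1 had log2 ratios of 0.15, 0.48 and 0.58, with SEs of 0.25, 0.51 and 0.47, and none passed.

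Markers of other layers and cell types also differed between these bins. Across Krt10, the summed level of 4 sebaceous or upper follicle markers was 9359 CPM in the low and 605.8 CPM in the high bin of control 1, 6345 and 345.5 CPM in control 2, and 4046 and 1019 CPM in the library labelled cKO. The 8 granular markers summed to 41083 and 9785 CPM, 56109 and 7328 CPM, and 18424 and 17344 CPM in the same bins. The 6 basal markers summed to 8282 and 2968 CPM, 5773 and 2077 CPM, and 21160 and 8649 CPM. The low bin of Krt10 thus held basal, granular and sebaceous or upper follicle markers together. A contrast across Krt10 therefore does not place a gene along differentiation. Across Krt14, the sebaceous or upper follicle list went from 863 CPM without Krt14 to 13434 CPM in the high bin of control 1, from 454 to 6373 CPM in control 2, and from 1213 to 3391 CPM in the library labelled cKO. Across Lor, that list went from 4049 CPM in the low to 1278 CPM in the high bin of control 1. It went from 2328 to 465.9 CPM in control 2 and from 2745 to 1717 CPM in the library labelled cKO. The part of these markers in the results for Krt10, Krt14 and Lor was not tested.

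Across Krt14 the order of the 2 connexin genes was turned about. Gjb5 was at 501 CPM in cells of control 1 without Krt14, 413 CPM in the low bin and 173 CPM in the high one. Control 2 had 524, 434 and 269 CPM, and the library labelled cKO had 340 CPM, 452 CPM and 213 CPM. The high bin was lowest in every library. The fitted log2 ratio was -1.15 (SE 0.21, edgeR adjusted p = 0.0103), and the call was lost without control 1 (adjusted p = 0.0670, edgeR) and when cells with a Krt14 count were set against those without (adjusted p = 0.394, edgeR).

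Gja1 was at 30.0, 49.0 and 99.3 CPM in the same bins of control 1, at 32.7, 28.7 and 73.4 CPM in control 2, and at 126.5, 109 and 284 CPM in the library labelled cKO. The high bin was highest in every library, by 1.69, 1.14 and 1.16 on the log2 scale. The fitted log2 ratio of 1.24 (SE 0.32) missed the threshold (edgeR adjusted p = 0.0665). It passed in 4 of 14 alternatives, among them DESeq2 (adjusted p = 0.00465). In the library labelled cKO the share of thinned cells with Gja1 was 6.25% (4.42% to 8.55%) without Krt14 and 12.6% (10.6% to 14.9%) in the high bin. The intervals overlapped in the controls, at 1.71% (0.96% to 2.80%) and 2.73% (1.19% to 5.31%) in control 1. Control 2 had 1.46% (0.80% to 2.43%) and 2.94% (1.35% to 5.51%). As the Gja1 share of the library labelled cKO was not above the immune background, no order was read from these shares.

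Gjb5 was the only one of the 8 members called across Krt14, beside 2.16% of all 11877 genes tested, with 134 genes higher and 123 lower in the high bin. With library totals 67.6% of called genes were higher and with DESeq2 63.8%, against 52.1%. Cldn4 was at 115, 85.4 and 44.6 CPM in control 1, 91.4, 102 and 64.4 CPM in control 2, and 78.3, 84.2 and 72.3 CPM in the library labelled cKO. Its fitted log2 ratio of -0.75 (SE 0.33) did not pass (edgeR adjusted p = 0.353), and its thinned share of cells was higher, not lower, in the high bin than without Krt14, at 5.46% against 4.78%, 4.90% against 4.78% and 4.35% against 3.99%, so that no order was read. The ratios of Cldn1, Ocln and Tjp1 were 0.28, -0.36 and 0.36, with SEs of 0.24, 0.66 and 0.47.

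**Figure D2:**
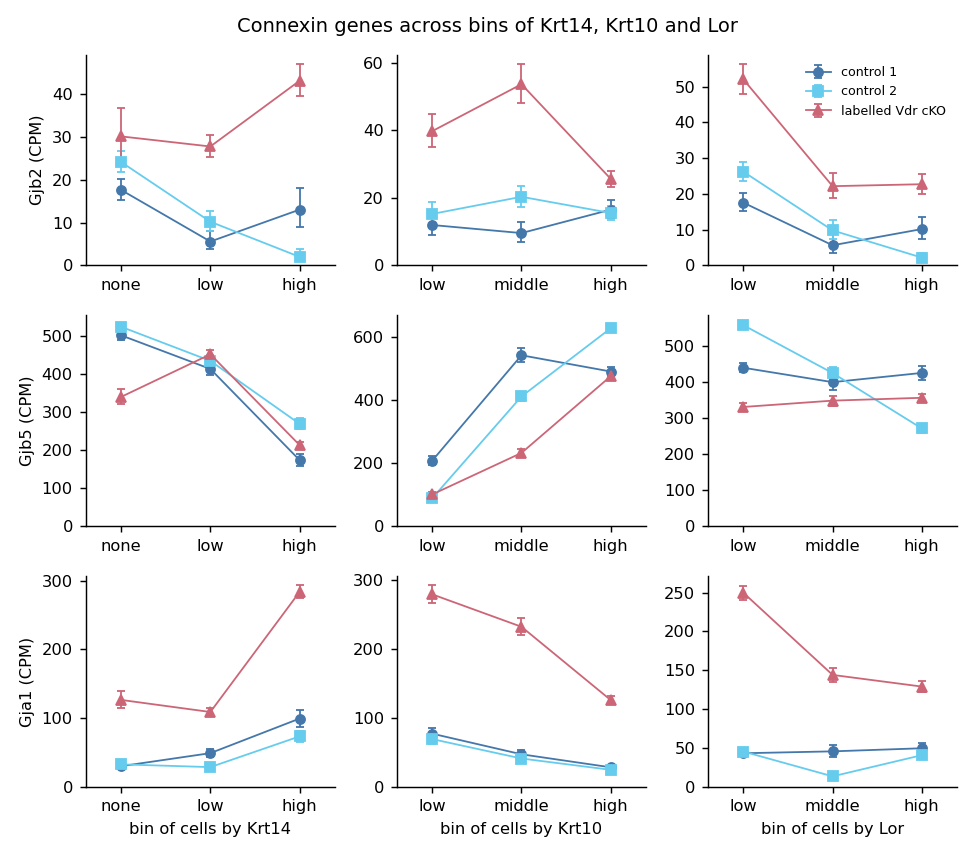
Levels of Gjb2, Gjb5 and Gja1 (CPM, with exact 95% Poisson intervals) in 3 bins of cells by Krt14, Krt10 and Lor, for control 1 (circles), control 2 (squares) and the library labelled cKO (triangles). In all 3 libraries Gjb5 is higher in the high than in the low bin of Krt10 and lowest in the high bin of Krt14, Gja1 is lowest in the high bin of Krt10 and highest in the high bin of Krt14, and the Gja1 triangles lie above both controls in every bin.

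Lor marked out Cldn4. Claudin-4 is a claudin of barrier epithelia, and its gene was at 71.6, 141 and 123 CPM in the low, middle and high bin of Lor in control 1, at 66.6, 116 and 120 CPM in control 2, and at 52.8, 83.3 and 104 CPM in the library labelled cKO. The low bin held the lowest level in all 3 libraries. Median counts per cell in the low and high bin were 6309 and 3777, 13094 and 3301, and 6834 and 3702. Unthinned, the share of cells with Cldn4 went from 15.2% to 13.0% and from 20.6% to 19.2% in the controls. In the library labelled cKO it went from 17.05% to 21.4%. After thinning it rose in all 3, from 4.26% to 5.80%, 4.20% to 5.64% and 3.33% to 6.04%. No order was read from these shares. Between the ends the CPM of Cldn4 rose by 0.77, 0.84 and 0.96 on the log2 scale. The fitted log2 ratio was 1.20 (SE 0.28, edgeR adjusted p = 0.0223), a 2.30-fold rise. The fitted rise was larger than that of any of the 3 libraries. It uses TMM factors, while the CPM of each library uses totals. The call was lost in 7 of 14 alternatives: with each library left out in turn (adjusted p between 0.0643 and 0.203, edgeR), with narrower limits on cells, without the 5% of cells with the most counts and with 2 bins in place of 3 (adjusted p between 0.0523 and 0.0983, edgeR), and with library totals (adjusted p = 0.126, edgeR), under which the median of all genes moved from -0.11 to -0.43.

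Cldn4 was the only member called across Lor, of 8 tested, beside 3.92% of all 11849 genes, with 434 genes higher and 30 lower in the high bin. With library totals 65.5% of called genes were higher, against 93.5%. Tjp1 had its lowest level in the high bin of every library, at 43.9, 38.2 and 17.3 CPM in the bins of control 1, 61.9, 61.3 and 18.1 CPM in control 2, and 53.4, 50.2 and 29.8 CPM in the library labelled cKO. Its fitted log2 ratio of -0.97 (SE 0.43) did not pass after adjustment (edgeR adjusted p = 0.361). Cldn1 was highest in the middle bin of every library, at 325, 352 and 302 CPM, and had a fitted log2 ratio of 0.09 (SE 0.20) between the ends.

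Gjb2 was at 17.5 and 10.1 CPM in the low and high bin of Lor in control 1, at 26.2 and 2.13 CPM in control 2, and at 52.1 and 22.7 CPM in the library labelled cKO. The high bin was below the lowest in all 3 libraries, but the fitted log2 ratio of -1.33 (SE 0.76) did not pass (edgeR adjusted p = 0.531). Gjb5, Gja1 and Ocln gave no common direction across Lor. Gjb5 was at 440.4 and 426 CPM in the low and high bin of control 1, at 559 and 272 CPM in control 2, and at 331 and 357 CPM in the library labelled cKO. Gja1 was at 43.2 and 49.6 CPM, at 45.3 and 40.7 CPM, and at 249.7 and 129.0 CPM, so that its mean log2 ratio over libraries was -0.30 while the fitted one was 0.03 (SE 0.39). Ocln was at 44.6, 54.3 and 8.86 CPM in control 1, at 32.0, 51.7 and 33.5 CPM in control 2, and at 33.1, 28.0 and 37.0 CPM in the library labelled cKO. In the high bin of Krt14 it was at 76.3, 10.9 and 26.5 CPM, and in control 1 a single cell held 26.7% of the Ocln counts.

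**Figure D3:**
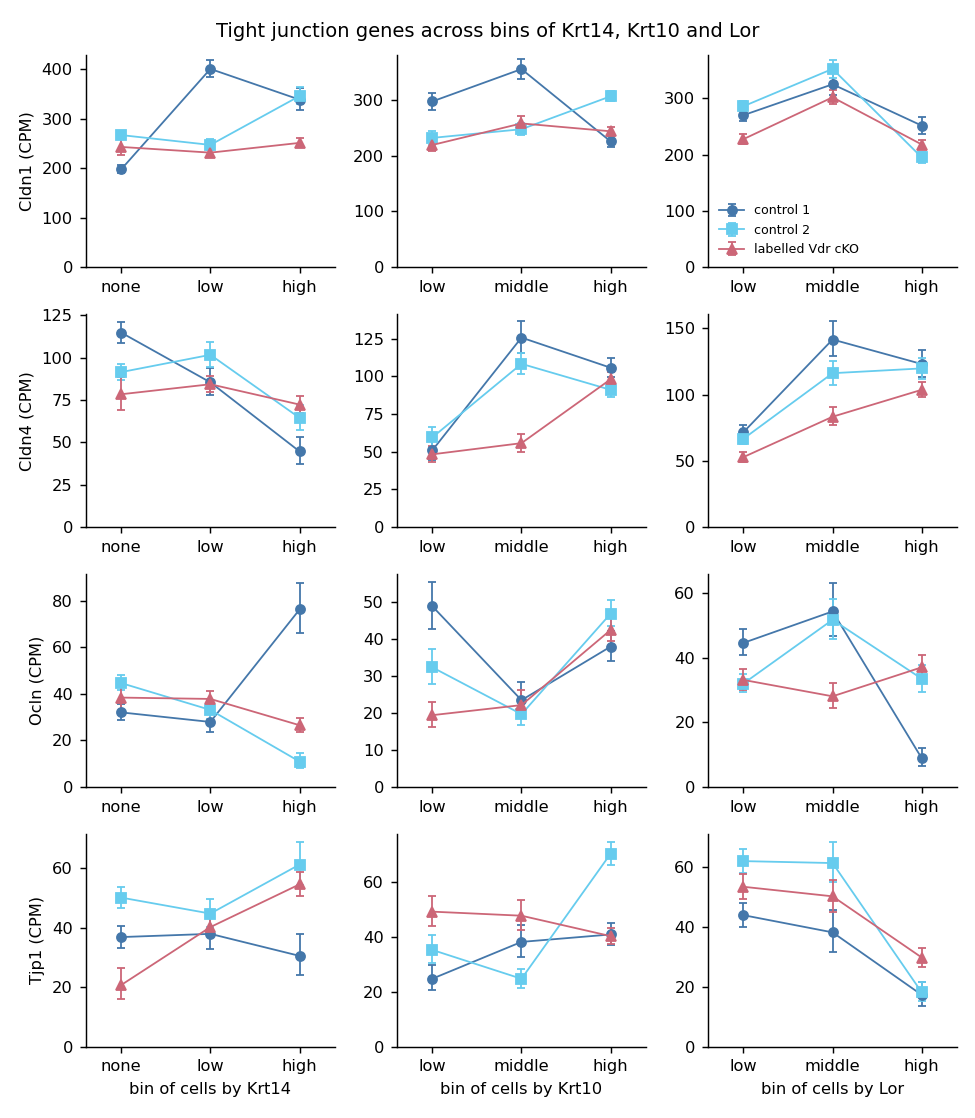
Levels of Cldn1, Cldn4, Ocln and Tjp1 (CPM, with exact 95% Poisson intervals) in the same bins and libraries, with circles for control 1, squares for control 2 and triangles for the library labelled cKO. Cldn4 is lowest and Tjp1 is not lowest in the low bin of Lor in all 3 libraries, and the 3 Ocln lines cross.

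**Figure D4:**
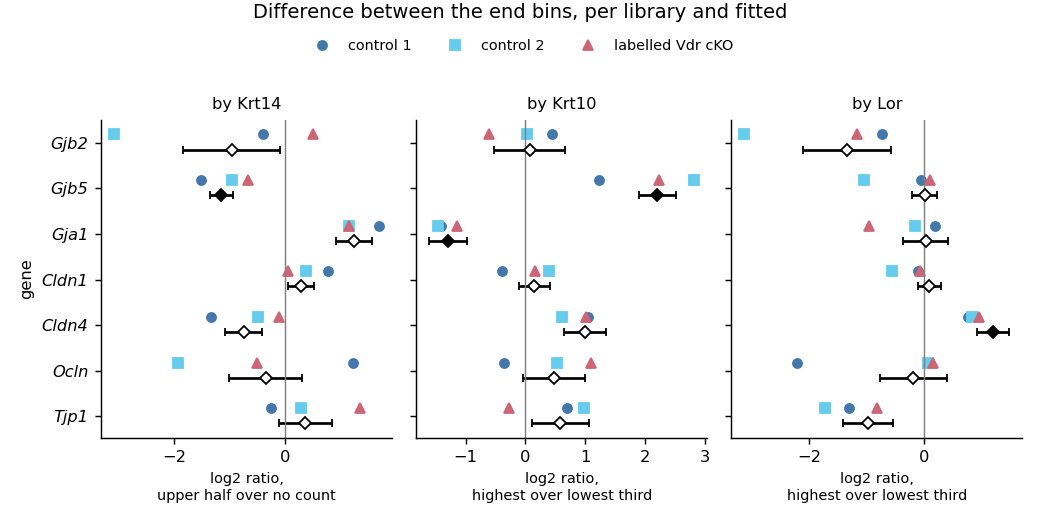
Log2 ratio of the high over the low bin, or for Krt14 over cells without a count, for each gene but Gjb6. Values are by library (circles, squares, triangles, from CPM) and as fitted in edgeR (diamonds with 1 SE, filled where the adjusted p was under 0.05). The filled diamonds are Gjb5 by Krt14, Gjb5 and Gja1 by Krt10, and Cldn4 by Lor.

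The wider junction list was read in the same fits. Of 39 of its genes tested across Lor, 4 passed the test, beside 3.92% of all genes, of which 434 of 464 called were higher in the high bin. All 4 were higher: Cldn23, a claudin gene, with a log2 ratio of 2.15 (SE 0.26), Cgn with 1.12 (SE 0.29), Pard3, a cell polarity gene, with 1.08 (SE 0.26), and Ybx3, the gene of the ZO-1-associated factor ZONAB, with 0.79 (SE 0.14). Their edgeR adjusted p-values were 8.11e-05, 0.0412, 0.0271 and 0.00335 in that order. Across Krt10, 2 of 39 passed, beside 3.74% of all genes, both higher, among them Lsr, a gene of tricellular junctions, with a log2 ratio of 1.31 (SE 0.26). Across Krt14, 2 of 38 passed, beside 2.16%, both lower, Cgn with -1.69 (SE 0.32) and Ybx3 with -0.76 (SE 0.16). The medians over the list were 0.03 for Lor, 0.40 for Krt10 and -0.48 for Krt14, those over the members -0.05, 0.53 and -0.04, and those over all genes tested -0.11, 0.03 and -0.03.

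The higher Gja1 level of the library labelled cKO was set beside these bins. Gja1 was higher there than in both controls in 9 of 9 bins, by 2.81 to 5.64 times the control mean. With the same limits for the cells of all libraries together, it was again higher in 9 of 9 bins, by 2.54 to 5.45 times. In cells without a Krt14 count it was at 30.0, 32.7 and 126.5 CPM, and in the high common bin of Krt14 at 99.2, 78.4 and 277 CPM. The 9 bins divide the same cells by Krt14, Krt10 and Lor in turn, so they are not separate support for the difference. How many of all genes were highest in that library in 9 of 9 bins was not counted. Markers of other layers and cell types also differed between libraries in the bin without Krt14. Basal markers other than Krt14 summed to 2740, 1736 and 5897 CPM there. Inner root sheath markers summed to 0.918, 0.123 and 1011 CPM, and companion layer markers to 722, 844 and 1775 CPM. Their part in the result was not tested. Gjb2 was also higher in 9 of 9 bins, and Cldn4 was lowest in that library in 7 of 9.

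Levels were then read in 3 sets of cells that share no cell: the high bin of Lor, cells high in Krt10 and in neither other marker, and cells high in Krt14 and in neither other marker. The Krt14-high set held 151, 155 and 578 cells of the 3 libraries, the Krt10-high set 307, 363 and 355, and the Lor-high set 493, 552 and 874. Gja1 was highest in the Krt14-high set of each library, at 112, 127 and 334 CPM, against 25.8, 17.1 and 101 CPM in the Krt10-high set and 49.6, 40.7 and 129.0 CPM in the Lor-high set. Gjb5 was lowest in the Krt14-high set of each library, at 89.3, 108 and 100.3 CPM, and highest in the Krt10-high set, at 512, 644 and 525 CPM. Cldn4 was lowest in the Krt14-high set, at 16.1, 21.1 and 49.1 CPM, and highest in the Lor-high set, at 123, 120 and 104 CPM. In all 3 libraries the CPM of these genes kept 1 order of the 3 sets. Few cells carry it in the Krt14-high set of control 1 and control 2: 11 and 15 had a Gja1 count, and 13 and 10 a Cldn4 count. The thinned Gja1 share of control 1 was 3.31% (1.08% to 7.56%) in that set and 2.30% (0.93% to 4.67%) in the Krt10-high set. Thinned shares kept the order of the CPM for Gjb5 only. For Gja1 they were lowest in the Lor-high set, at 2.07%, 0.973% and 5.92%, against 2.30%, 1.68% and 6.03% in the Krt10-high set. For Cldn4 they were 5.80%, 5.64% and 6.04% in the Lor-high set and 5.90%, 7.26% and 4.02% in the Krt10-high set. No order was read from these shares. Within a set, Gjb5 in the library labelled cKO was at 0.909 to 1.02 times the control mean. The 3 sets do not hold all cells. They were built from the same bins of the same cells as the tests above, so the order of the sets is not separate support. Over the 9 bins of each library Gjb5 in the library labelled cKO ran from 0.487 to 1.07 times the control mean, lowest in that library in 5 bins and highest in 1. The controls themselves differed, at 426 and 272 CPM in the Lor-high set, against 357 CPM in the library labelled cKO.

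**Figure D5:**
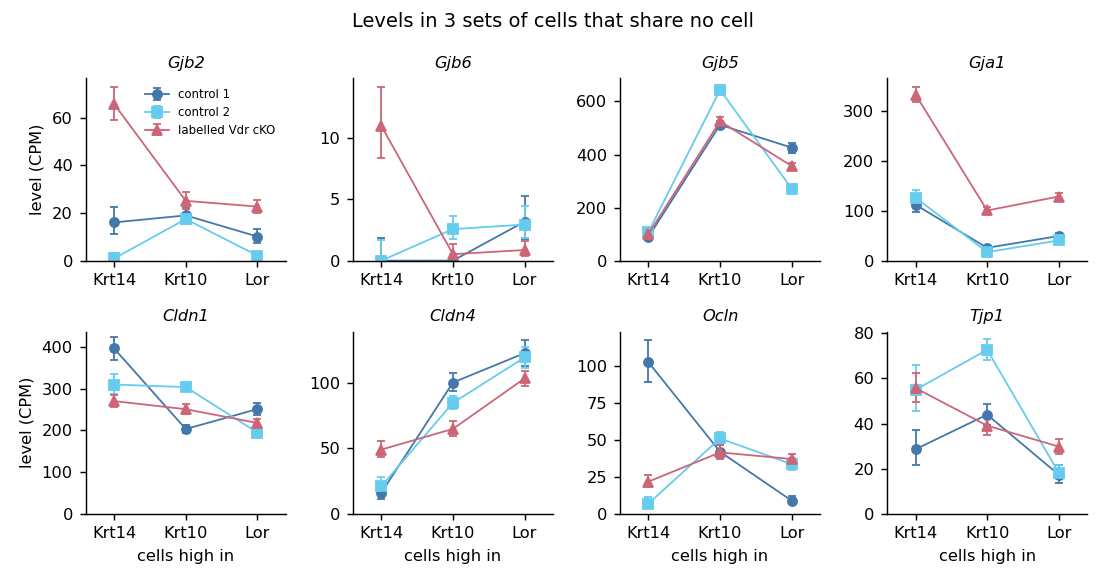
Levels of the 8 genes (CPM, with exact 95% Poisson intervals) in cells high in Krt14, in Krt10 and in Lor, in 3 sets that share no cell, for control 1 (circles), control 2 (squares) and the library labelled cKO (triangles). Gja1 is highest in the Krt14-high set, Gjb5 in the Krt10-high set and Cldn4 in the Lor-high set of every library.

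The genes whose pattern was most like that of a member were looked up over 18 points, 6 rank bins of Lor in each of 3 libraries, centred within library, among 3917 genes. For Gjb5 these were Id1, an inhibitor of differentiation factors (Pearson r 0.92), Smarca4 (r 0.87) and Alox12e (r 0.86), an epidermal lipoxygenase gene. For Gja1 they were Srsf11 (r 0.85), Unc50 (r 0.80) and Cdkn1b (r 0.79). For Cldn4 they were Baiap2 (r 0.86), Slurp1 (r 0.82), a secreted protein of upper keratinocytes, and Ak1 (r 0.79), for Cldn1 Clip4, Tmem19 and Rpl36al (r 0.81 to 0.82), and for Tjp1 Cyc1 (r 0.87), Mdh2 and Hdac2 (r 0.86 for both). Among the members themselves, r was 0.60 between Cldn1 and Tjp1, 0.26 between Gjb5 and Gja1 and -0.54 between Gja1 and Cldn1. The points share libraries, depth and cells' rank in Lor, and these r values are a description of 18 points only.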

How the data were processed

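Droplet single-cell RNA sequencing (Nadia, RNAdia 2.0) gave 2 control libraries and 1 library labelled cKO from trypsin-dissociated P18 dorsal skin. The authors deposited raw counts per gene and barcode for each library, without normalization. The submitters' processing notes give mm10. The paper names Seurat, and the aligner, the annotation and the collapsing of PCR copies are not given in the sources used here.

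The 8 members and all lists were chosen with earlier results of these data known, so no count over them is independent support. No doublet caller was run, and leaving out the 5% of cells with the most counts was tried instead. Levels are pooled CPM, and folds are on the log2(CPM + 1) scale. Bins were tested with edgeR 4.0.16 (filterByExpr, TMM, quasi-likelihood) in R 4.3.3, with DESeq2 1.42.0 as an alternative, at adjusted p under 0.05. An SE is the log2 ratio divided by the square root of its F. The labels do not say how the pools of animals relate. With library as a term, p-values measure how far bin differences, middle bins included, varied among these 3 libraries, not between animals. In simulated counts for the Lor comparison (11849 genes), 37 of 112 genes changed 4-fold and 2 of 88 changed 2-fold were called, so that a difference not called is not shown to be absent. Of the 44 genes called, 5 were unchanged, a larger share than the limit of 0.05, so that a call across Lor can be false. Unchanged genes were 0 of 28 called for Krt10 and 2 of 39 for Krt14. Named genes were the 8 members, the 4 genes of the wider list with the largest log2 ratio past the threshold in each bin contrast and those called between libraries, and the 3 most alike genes of each tested member. A gene of the wider list that the rule names for Krt10 is not reported here. Of the gene symbols, 97.6% were found in GENCODE M21. Python 3.11.15, numpy 2.4.6, scipy 1.17.1, pandas 2.3.3 and matplotlib 3.10.9 were used.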

Additional observations from a re-analysis of the deposited data

Results flagged for a closer look

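For 4 results, the log2 ratio of the high over the low bin went one way in both controls and the other way in the library labelled cKO. For Krt14 the ratio is that of the high bin over cells without a count. Gjb2 across Krt10 was at 0.44 and 0.02 in control 1 and control 2 and at -0.61 in the library labelled cKO. Gjb2 across Krt14 was at -0.41 and -3.09 in the controls and at 0.50 in that library. Gjb5 across Lor was at -0.05 and -1.04 in the controls and at 0.11. Tjp1 across Krt10 was at 0.70 and 0.98 in the controls and at -0.28. By thinned share of cells, Tjp1 and Gjb2 across Krt10 did not split, as the high bin was higher in all 3 libraries. In the library labelled cKO the share went from 2.11% to 2.57% for Tjp1 and from 1.29% to 1.63% for Gjb2. Gjb2 across Krt14 and Gjb5 across Lor split by share as by CPM. No order was read from these shares. With 1 library carrying the label, none of these 4 differences between groups was tested. All 8 members were looked at across Krt14, Krt10 and Lor, with at least 3 counts needed in each end bin. How many of all genes split this way was not counted, so that the number of 4 supports nothing. For Gjb2 the smallest of the bins compared across Krt14 held 9 counts. Gjb6 across Krt10 was at 2.16 and 1.69 in the controls and at -2.63 in the library labelled cKO, but is not among the 4 because a bin compared held 0 counts.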

How the results depend on the processing

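Gja1 was the only tested member called between libraries in every alternative for which calls were counted. Calls were not counted without the cell with the most counts of the gene. In the main setting Gja1 passed the 50 CPM filter through the library labelled cKO alone, so that these calls support nothing. Gjb5 was higher in the high bin of Krt10 in all 14 alternatives for the bins. The other bin calls rest on the processing, and causes were not tested. The Gja1 log2 fold was 2.46 with cells of over 300 and under 4000 genes and under 5% mitochondrial counts, 1.76 without the deepest 5% of cells, 1.66 as the mean of single-cell CPM, 1.68 with each gene counted once per cell, 1.88 with 10 CPM added, 1.91 with TMM factors, 1.88 with median-of-ratios factors and 2.21 and 1.97 with control 1 or control 2 left out. Leaving out the cell with the most counts of the gene, or cells with an inner root sheath count, were alternatives chosen after seeing the data, and gave 2.20 and 2.06. The log2 ratio of Gja1 shares was 2.65 at 2000 counts per cell and 1.81 with 200 detected genes drawn per cell. Genes called between libraries numbered 829 with a minimum of 10 CPM, 557 at 1.5-fold and 344 and 380 with control 1 or control 2 left out.

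Across Lor, 0 members were called in edgeR with the narrower limits on cells, without the deepest 5%, with library totals and with 2 bins in place of 3, 0 also with any library left out, and 2 with each gene counted once per cell; at an unadjusted p under 0.05 the main fit held Cldn4 and Tjp1. Across Krt10, 1 was called with all barcodes, the narrower limits, without the deepest 5%, with 2 bins and with any library left out. Across Krt14, 2 were called with library totals, DESeq2 and no filter on low counts, 3 with each gene counted once per cell, 0 with 2 bins and 0 to 1 with a library left out. Genes called across Lor numbered 853 with DESeq2, 1387 counted once per cell and 269 to 374 with a library left out. Across Krt10 they numbered 1271 with DESeq2, 867 without the filter, 1398 counted once per cell, 158 with 2 bins and 30 to 511 with a library left out, lowest without control 1. Across Krt14 they numbered 168 without the deepest 5%, 813 with DESeq2, 573 without the filter, 726 counted once per cell, 45 with 2 bins and 112 to 232 with a library left out.

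Every log2 ratio that turned its sign was one that had not passed the test. Across Lor, Gja1 was at -0.0054 with all barcodes, -0.35 without the deepest 5%, -0.045 in cells of at least 2000 counts, -0.31 with library totals, -0.26 counted once per cell, -0.011 with common limits and -0.17 to 0.36 with a library left out. Gjb5 was at -0.32 and Cldn1 at -0.24 with library totals, Gjb5 at -0.16 to 0.33 with a library left out, Ocln at 0.13 counted once per cell and -0.64 to 0.43 with a library left out, and Gjb6 at 0.62 with common limits, 1.94 with 2 bins and -1.25 to 2.05 with a library left out. Across Krt10, Gjb2 was at -0.033 with the narrower limits, -0.0028 with library totals, -0.016 with DESeq2, -0.0021 with common limits and -0.18 to 0.28 with a library left out, Gjb6 at -0.56 with the narrower limits, -0.21 with 2 bins and -1.78 to 7.58 with a library left out, and Cldn1 at -0.038 counted once per cell and -0.021 to 0.39 with a library left out. Across Krt14, Cldn1 was at -0.11 without the deepest 5% and -0.26 counted once per cell, Ocln at -1.39 to 0.38 and Tjp1 at -0.020 to 0.66 with a library left out.

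No paired analysis was possible, because the labels do not pair a control library with the library labelled cKO. Gjb2, Gjb6 and Ocln lay under 50 CPM in every library and were not tested between libraries. The Ocln counts came from 44, 91 and 187 cells. The part of depth was not tested.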

Other observations

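Lor was also read in sixths of the cells of each library. Cldn4 did not peak in the highest sixth of the controls: it was highest in the fifth, at 186 and 160.0 CPM, and was at 94.3 and 95.8 CPM in the sixth. In the library labelled cKO it was highest in the sixth, at 117 CPM, and at 84.4 CPM in the fifth. Gja1 ranged from 9.13 to 103 CPM over the sixths of control 1 and from 4.33 to 66.6 CPM over those of control 2, without a steady direction, and from 113 to 267 CPM in the library labelled cKO, where the lowest sixth was highest. These differences between libraries were not tested.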
